A study of Mus musculus with 10 samples.

Results

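The 34 genes described here carry glucose into the cell and oxidise it, and were measured in ribosome-bound RNA from the mouse ventral tegmental area (VTA), a midbrain region rich in dopamine neurons. They were listed by symbol as 2 glucose transporters, 13 genes of glycolysis, 2 lactate dehydrogenase genes, 4 genes of the pyruvate dehydrogenase complex and 13 of the citric acid cycle. All 34 were found among the 56691 genes of the deposited count table, and all 34 passed the filter on low counts that left 18440 genes for testing. The study set 5 restraint libraries, from male C57BL/6 mice held in acute restraint, a psychological stressor, for 30 min, against 5 control libraries from unrestrained males of that strain. The genotype of both groups is given as WT, and all libraries come from VTA tissue in which dopaminergic neurons expressed NBL10-HA, an HA-tagged ribosomal protein used to pull down ribosomes with their mRNA. The stated purpose was to find signalling pathways that restraint alters in these neurons. How the tag was restricted to dopaminergic neurons and the age of the mice are not given in the sources used here, and no unenriched or tag-free library was analysed here. Nothing in the labels says that libraries of a group came from separate mice, so p-values measure the spread between these libraries, which may be technical.

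Glucose enters brain cells through facilitative transporters and is split in the cytosol into pyruvate, first by steps that spend ATP and then by steps that return it. Pyruvate is either reduced to lactate by lactate dehydrogenase or carried into the mitochondrion, where the pyruvate dehydrogenase complex turns it into acetyl-CoA for the citric acid cycle, whose NADH feeds the respiratory chain. Dopamine neurons fire spontaneously and carry very large axonal arbours, and are known for a high energy demand, while astrocytes are known for strong glycolysis and lactate release.

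The libraries held 56082358 to 86584968 counts, and library pairs within a group differed by a chi-square per gene of at least 28.9, far more than sampling noise. Restraint library 1 stood apart on the first principal component, at -92.1 against -4.08 to 19.2 for the other 9, and had counts in 20936 genes against 22268 to 24513 in the others. Even numbers made up 80.0 to 84.8% of counts between 1 and 30 in restraint libraries and 76.8 to 79.8% in control libraries, a difference whose part in the results was not tested. Tyrosine hydroxylase (Th), which limits the rate of dopamine synthesis, had 477 ± 65.3 in restraint libraries and 411 ± 78.6 in control libraries, in CPM (counts scaled by the TMM method to a common library size; mean ± SD, n = 5 throughout), and the dopamine transporter Slc6a3 had 227 ± 51.5 CPM in restraint libraries and 232 ± 49.2 CPM in controls. The astrocyte filament gene Gfap exceeded both, at 2471 ± 316 CPM in restraint libraries and 1919 ± 121 CPM in controls, so the libraries also held RNA of other cells. The summed CPM of 12 astrocyte markers was 6118 to 7228 in restraint libraries and 5605 to 6412 in controls, and that of 13 dopamine neuron markers was 2207 to 3057 in restraint libraries and 1986 to 2712 in controls. The astrocyte sum includes Gfap and the aldolase Aldoc. Log2 fold changes (restraint minus control) were above 0 for 7 astrocyte markers and below 0 for 5. For dopamine neuron markers, 11 were above 0 and 2 below. Sums were 1579 to 2201 in restraint libraries and 1658 to 2020 in controls for 10 oligodendrocyte markers, 25.3 to 36.1 in restraint libraries and 26.4 to 40.8 in controls for 10 microglial markers, and 37.1 to 47.8 in restraint libraries and 35.5 to 45.4 in controls for 14 endothelial and pericyte markers. The 4 GABA neuron markers summed to 1404 to 1737 in restraint libraries and 1298 to 1638 in controls, and the 3 glutamate neuron markers to 355 to 481 in restraint libraries and 411 to 441.5 in controls. All of these markers passed the filter on low counts, and 0 had an adjusted p under 0.05 in the test used for the 34 genes; at an unadjusted p under 0.05, 6 of 13 dopamine neuron, 2 of 12 astrocyte, 3 of 10 oligodendrocyte and 0 of 10 microglial markers were higher after restraint and 0 of these lower, and 3 of 14 endothelial and pericyte markers were higher and 1 lower. Of the neuron markers, 1 of 4 for GABA and 0 of 3 for glutamate were higher and 0 lower. Over all genes tested, 5.64% were higher and 6.04% lower at that threshold. Fewer cells of a type and less RNA per cell cannot be told apart in such libraries.

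The 34 genes were among the more abundant transcripts of the ribosome-bound pool. Per kilobase of exon (RPKM), 7 of them ranked among the 100 most abundant of the 18440 genes in control libraries, and their median percentile was 96.1. The lowest, Suclg2, still stood at percentile 63.1, and the highest exceeded it 137-fold. In all, the 34 genes took 1.90 to 2.00% of normalized counts in restraint libraries and 1.95 to 2.17% in control libraries. Ldhb, the heart-type subunit of lactate dehydrogenase, led with 781 ± 54.2 RPKM in restraint libraries and 770 ± 73.9 in controls. Next came the aldolase Aldoa, which splits fructose 1,6-bisphosphate into trioses, with 644 ± 13.3 RPKM in restraint libraries and 691 ± 66.2 in controls. Gapdh, which oxidises glyceraldehyde 3-phosphate and makes the NADH of glycolysis, had 616 ± 42.8 RPKM in restraint libraries and 642 ± 66.0 in controls, and Mdh1, the cytosolic malate dehydrogenase of the malate-aspartate shuttle, had 535 ± 62.4 RPKM in restraint libraries and 609 ± 57.4 in controls. In controls, neighbours in this order differed by less than the sum of their SDs, and in restraint libraries only Ldhb and Aldoa lay further apart than that. The pyruvate dehydrogenase genes Pdha1, Pdhb, Dlat and Dld ran from 37.0 to 47.1 RPKM in restraint libraries and from 37.3 to 47.9 in controls.

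**Figure D1:**
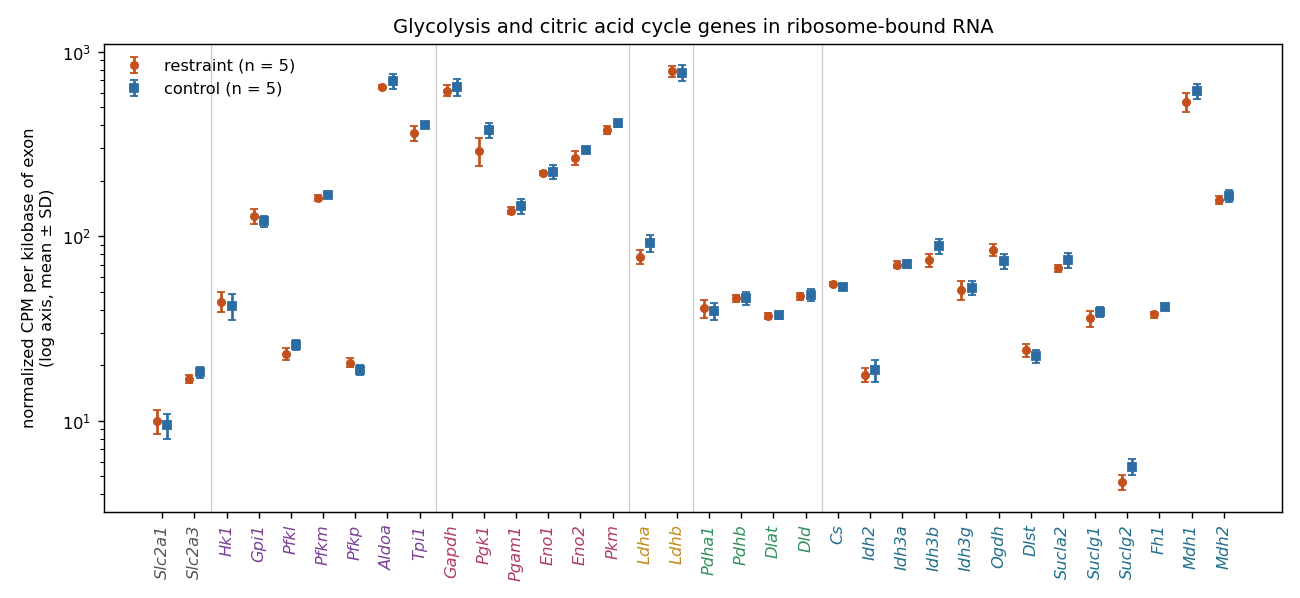
Mean RPKM (log axis) of the 34 genes in restraint and control libraries, ordered by role, with the SD over 5 libraries. Ldhb, Aldoa, Gapdh and Mdh1 are the highest and Suclg2 the lowest in both groups.

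None of the 34 genes changed past the threshold after restraint. In edgeR's quasi-likelihood test with Benjamini-Hochberg adjustment over all 18440 genes, 0 of 34 had an adjusted p under 0.05, where the test called 1 gene higher (0.00542% of those tested) and 3 lower (0.0163%, 0.0217% in either direction). Adjusted p-values of the 34 ran from 0.174 for Pgk1 to 0.995 for Pdhb. At an unadjusted p under 0.05, 6 were lower (Pfkl, Pgk1, Ldha, Idh3b, Suclg2 and Mdh1) and 1 was higher (Ogdh), which makes 20.6% of the list, while 6.04% of all genes were lower and 5.64% higher, 11.7% together. Log2 fold changes were below 0 for 25 of the 34 (73.5%, against 50.4% of all genes), and their median was -0.07, against -0.00 for all genes. In none of the 34 did the 5 restraint libraries lie wholly outside the range of the 5 controls, as they did above it in 1.25% and below it in 1.36% of all genes (2.61% together). Without restraint library 1, which stood apart, 0 of 34 passed, 5 were lower (all of the 6 but Mdh1) and 1 was higher at an unadjusted p under 0.05, and the median was -0.06. DESeq2 gave 1 of the 34 as lower (Pgk1, adjusted p = 0.0349), where it called 1.6% of the 12005 genes with an adjusted p lower and 1.16% higher.

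Standard errors of the log2 fold changes were 0.06 to 0.12, against a median of 0.14 over all genes. The 95% confidence intervals of 33 of the 34 lay within 0.5 of 0 on the log2 scale, and only that of Pgk1 reached further, to -0.59; the upper bounds reached 0.37. Of the 34 intervals, 27 included 0. The coefficient of variation between libraries was 1.99 to 17.4% in restraint libraries (median 7.25%) and 2.71 to 15.9% in controls (median 8.44%). Cs, citrate synthase, which joins acetyl-CoA to oxaloacetate, was the tightest in both groups, with 319 ± 6.36 CPM in restraint libraries and 305 ± 8.27 CPM in controls.

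**Figure D2:**
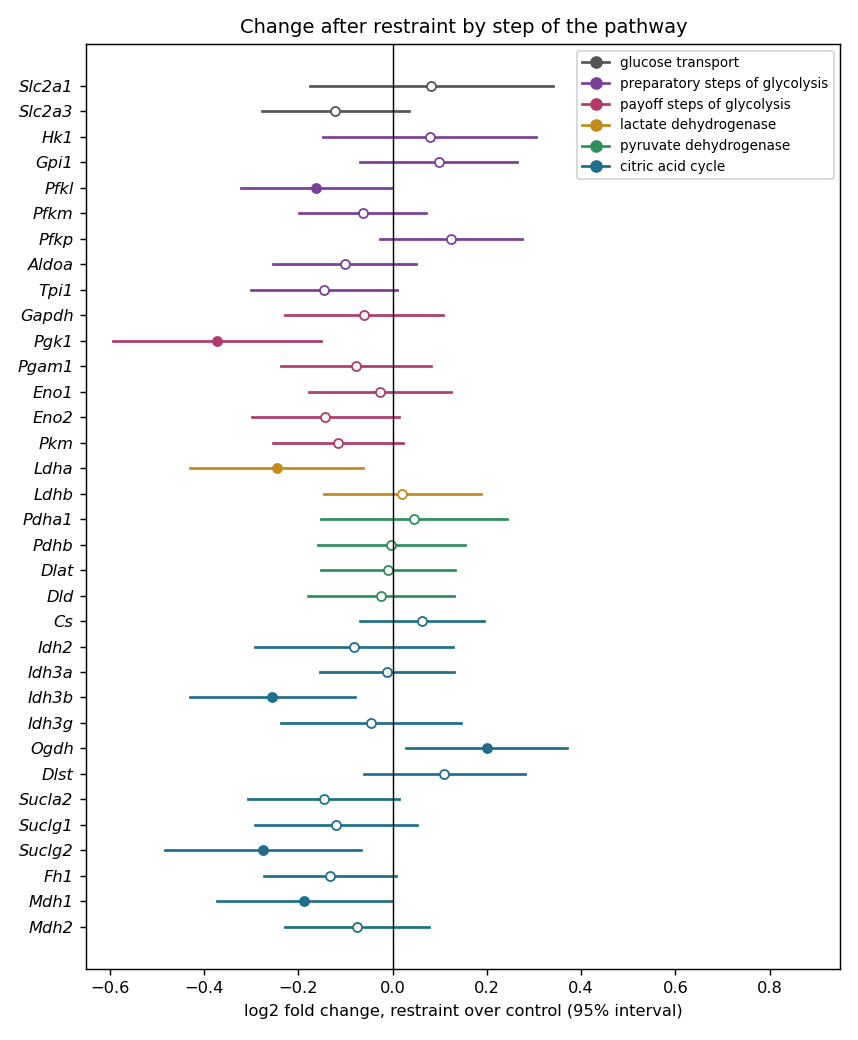
Log2 fold change of each of the 34 genes, restraint minus control, with its 95% confidence interval, ordered by role. Filled circles mark the 7 genes with an unadjusted p under 0.05; 25 of the 34 lie below 0, and no gene had an adjusted p under 0.05.

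The promoters of 32 of the 34 genes (all but Slc2a3 and Idh3a) were matched in the RefSeq table (GRCm38.p6), as 47 windows from 250 bases before to 50 bases after a transcription start. The core of the hypoxia response element, ACGTG, read on either strand, is known from glycolytic genes as part of the site that HIF-1 binds, and 3 windows that carry it are shown. Pgk1 had the smallest p of the list, Ldha was the gene whose ratio to its isozyme separated the groups, as given with lactate dehydrogenase, and Ogdh was the one gene above control at an unadjusted p under 0.05. Capitals mark each match, written ACGTG or, on the other strand, CACGT, and CACGTG where both overlap. All lie on the plus strand, Pgk1 at chrX:106186850-106187149, Ldha at chr7:46845554-46845853 and Ogdh at chr11:6291347-6291646; Ldha has 2 windows in the table and Ogdh 6, of which 1 each is shown.
Pgk1: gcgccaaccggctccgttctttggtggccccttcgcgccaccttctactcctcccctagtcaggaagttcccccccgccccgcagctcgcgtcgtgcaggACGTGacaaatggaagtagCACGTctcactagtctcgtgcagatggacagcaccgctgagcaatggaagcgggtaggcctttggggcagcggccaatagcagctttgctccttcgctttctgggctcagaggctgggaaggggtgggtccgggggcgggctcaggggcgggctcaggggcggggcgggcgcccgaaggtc
Ldha: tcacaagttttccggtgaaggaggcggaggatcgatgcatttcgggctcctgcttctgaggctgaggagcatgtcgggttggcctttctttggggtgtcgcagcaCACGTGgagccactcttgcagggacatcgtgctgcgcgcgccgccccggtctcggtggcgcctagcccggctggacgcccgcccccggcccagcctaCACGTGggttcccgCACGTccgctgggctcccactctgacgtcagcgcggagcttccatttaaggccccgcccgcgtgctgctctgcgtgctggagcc
Ogdh: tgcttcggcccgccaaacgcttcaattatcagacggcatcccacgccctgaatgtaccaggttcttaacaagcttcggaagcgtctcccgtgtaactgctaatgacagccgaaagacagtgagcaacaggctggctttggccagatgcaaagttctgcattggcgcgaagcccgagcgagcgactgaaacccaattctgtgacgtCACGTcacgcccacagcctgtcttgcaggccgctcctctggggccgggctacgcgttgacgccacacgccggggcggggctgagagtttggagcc

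The Pgk1 window held 2 matches, the Ldha window 5 and the Ogdh window 1. In the Ldha window each of the 2 stretches CACGTG counts as 2 matches, 1 per strand. The other Ldha window held 0. Over the list, 13 of 32 genes had the core in at least 1 window (Aldoa, Gapdh, Hk1, Idh3g, Ldha, Mdh1, Ogdh, Pdhb, Pfkm, Pgam1, Pgk1, Pkm and Slc2a1), and 21.8% of the 27025 genes in the table did. By window, 42.6% of the 47 held it (20 windows) and 19.6% of all windows did. All 6 Ogdh windows were among the 20, and several of them share most of their bases, as do the matching Aldoa windows. The same bases were thus counted more than once. The list had 47 windows for 32 genes, and the whole set had 32851 windows for 27025 genes, so the list had more windows per gene. The part of this in either share was not tested. The E-box CACGTG, which contains the core, was found for 3 genes (Ldha, Ogdh and Pfkm; 8.1% of all genes), and the cAMP response element TGACGTCA for 3 (Ldha, Mdh2 and Ogdh; 2.0%). The GC box GGGCGG was found for 22 genes (38.2% of all genes), the STAT motif TTCNNNGAA for Pfkm alone (9.6%) and the NRF1 motif for Pgam1 alone (1.1%). The windows of the list had a median GC content of 60.3%, against 52.7% for all windows, and the part of base composition in these counts was not tested. These are matches of letters and not measured binding. Of the 13 genes with the core, Ogdh, Hk1 and Slc2a1 had log2 fold changes above 0. Aldoa, Gapdh, Idh3g, Ldha, Mdh1, Pdhb, Pfkm, Pgam1, Pgk1 and Pkm lay below 0, as did 25 of all 34 genes. Whether the core goes with the direction of change was not tested.

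Among the transporters, Slc2a1 (GLUT1), known from brain capillaries and astrocytes, had 39.7, 36.0, 37.8, 35.1 and 26.3 CPM in restraint libraries 1 to 5, against 26.4, 34.7, 40.4, 33.3 and 30.5 CPM in control libraries 1 to 5. Slc2a3 (GLUT3), the high-affinity transporter of neurons, had 120.3, 114, 120.2, 130 and 128 CPM in restraint libraries 1 to 5, against 145, 136, 119.7, 130.3 and 135.5 CPM in control libraries 1 to 5. The groups overlapped for both genes, although all 5 restraint values of Slc2a3 lay below the control median. The log2 fold changes were 0.08 ± 0.12 for Slc2a1 (adjusted p = 0.862) and -0.12 ± 0.07 for Slc2a3 (adjusted p = 0.566; ± SE throughout).

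In the preparatory steps, 0 of 7 genes passed the test, 4 had a log2 fold change below 0 and the median was -0.06. Hk1, the hexokinase that traps glucose in brain cells, had 377 ± 47.1 CPM in restraint libraries and 357 ± 56.7 CPM in controls, and Gpi1, which isomerises glucose 6-phosphate, had 833 ± 78.1 CPM in restraint libraries and 778 ± 56.0 CPM in controls. Phosphofructokinase, which commits sugar to glycolysis, is built from the subunits Pfkl, Pfkm and Pfkp, named after liver, muscle and platelet. Pfkl had 173, 150.5, 157, 143 and 147 CPM in restraint libraries 1 to 5, against 158, 189, 169, 173 and 173 CPM in control libraries 1 to 5. Restraint library 1 lay above the control median and the other 4 restraint libraries below the lowest control, with a log2 fold change of -0.16 ± 0.08 (adjusted p = 0.424). Pfkm had 534, 571, 537, 519 and 526 CPM in restraint libraries 1 to 5, against 536, 583, 551, 576 and 562.5 CPM in control libraries 1 to 5. Pfkp had 265, 262, 296, 289 and 269.9 CPM in restraint libraries 1 to 5, against 239.7, 269, 237, 252 and 269.8 CPM in control libraries 1 to 5. Values of Pfkm lay mostly below and those of Pfkp all above the control median, with overlapping groups and log2 fold changes of -0.06 ± 0.06 (adjusted p = 0.766) and 0.12 ± 0.07 (adjusted p = 0.534). Aldoa had 1834, 1908, 1841, 1874 and 1921 CPM in restraint libraries 1 to 5, against 1794, 1873, 2111, 2006 and 2281 CPM in control libraries 1 to 5. All 5 restraint values of Aldoa lay below the control median but above the lowest control, and the coefficient of variation was 2.06% in restraint libraries and 9.58% in controls. Tpi1, which interconverts the trioses, had 999 ± 94.9 CPM in restraint libraries and 1105 ± 30.4 CPM in controls, a log2 fold change of -0.15 ± 0.07 (adjusted p = 0.462).

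The payoff steps all had log2 fold changes below 0, in 6 of 6 genes with a median of -0.10, and 0 of 6 passed the test. Pgk1, the phosphoglycerate kinase that makes the first ATP of the pathway and whose promoter held 2 matches to the hypoxia core, had the smallest p of the 34. Its values were 668, 639, 574, 546 and 836 CPM in restraint libraries 1 to 5, against 925.5, 739.8, 835, 917 and 807 CPM in control libraries 1 to 5. Restraint libraries 1 to 4 all lay below the lowest control, and restraint library 5 lay within the control range, above 3 of the 5 controls. The means were 653 ± 113.5 CPM in restraint libraries and 845 ± 78.0 CPM in controls, a log2 fold change of -0.37 ± 0.10 (95% interval -0.59 to -0.15; adjusted p = 0.174, edgeR). Without restraint library 5, which lay within the control range, it was -0.48 and Pgk1 passed the edgeR test (adjusted p = 0.0242). Without restraint library 4 it was -0.31 and Pgk1 did not pass (adjusted p = 0.318), nor did it without restraint library 3 (adjusted p = 0.376). Over all genes, leaving out 1 library gave 0 to 9 higher and 0 to 83 lower. With no filter on low counts Pgk1 passed (adjusted p = 0.0289), where 103 of all genes were higher and 199 lower.

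The other payoff genes differed less. Gapdh had 2642, 2328, 2655, 2715 and 2380 CPM in restraint libraries 1 to 5, against 2303, 2529, 2723, 2664 and 3047 CPM in control libraries 1 to 5, with a log2 fold change of -0.06 ± 0.08 (adjusted p = 0.836). Pgam1, the phosphoglycerate mutase, had 273 ± 11.7 CPM in restraint libraries and 288 ± 25.9 CPM in controls. The enolases make phosphoenolpyruvate: Eno1 is the form of most tissues, and Eno2 is known as neuron-specific enolase. Eno1 had 1186, 1156, 1169, 1159 and 1242 CPM in restraint libraries 1 to 5, against 1068, 1148, 1215, 1251 and 1343 CPM in control libraries 1 to 5. Eno2 had 1272, 1057, 1353, 1317 and 1276 CPM in restraint libraries 1 to 5, against 1305, 1414, 1355, 1429 and 1423 CPM in control libraries 1 to 5. The Eno1 groups overlapped throughout, while all 5 Eno2 values after restraint lay below the control median, with restraint library 2 well below the rest, and the log2 fold changes were -0.03 ± 0.07 (adjusted p = 0.933) and -0.14 ± 0.07 (adjusted p = 0.483). Pkm, the pyruvate kinase gene, had 1891 ± 97.8 CPM in restraint libraries and 2050 ± 93.8 CPM in controls, with all 5 restraint values below the control median and a log2 fold change of -0.12 ± 0.06 (adjusted p = 0.524).

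Lactate dehydrogenase is a tetramer of 2 kinds of subunit. Ldha, the muscle-type form that favours lactate production, had 258, 247, 259, 228 and 289 CPM in restraint libraries 1 to 5, against 294, 257, 311, 312 and 345.5 CPM in control libraries 1 to 5. All 5 restraint values lay below the control median, but control library 2 lay below 3 of the 5 restraint libraries, and the log2 fold change was -0.25 ± 0.09 (adjusted p = 0.269). Ldhb, the form that favours lactate oxidation, had 1177, 1221, 1316, 1114 and 1304 CPM in restraint libraries 1 to 5, against 1146, 1055, 1267, 1359 and 1219 CPM in control libraries 1 to 5. Its groups overlapped throughout, with a log2 fold change of 0.02 ± 0.08 (adjusted p = 0.958).

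**Figure D3:**
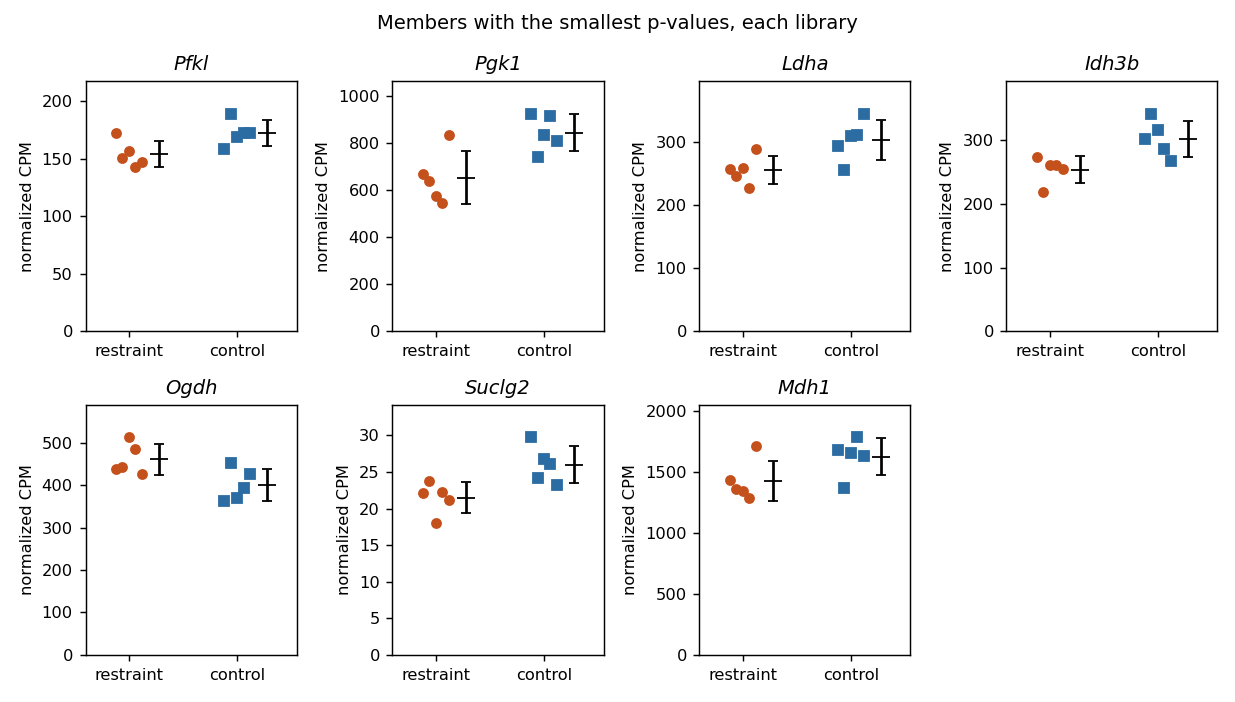
Normalized CPM of the 7 genes with an unadjusted p under 0.05 in each restraint and control library, with mean ± SD beside the points. The groups overlap in all 7; 6 have the lower mean after restraint, and Ogdh the higher.

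Set against Ldhb in the same library, Ldha separated the groups. The ratio of Ldha to Ldhb (CPM over CPM) was 0.219, 0.202, 0.197, 0.204 and 0.222 in restraint libraries 1 to 5, against 0.257, 0.243, 0.245, 0.229 and 0.283 in control libraries 1 to 5. All 5 restraint libraries lay below all 5 controls, a difference of -0.27 in mean log2 ratio. An exact two-sided permutation test over the libraries gave p = 0.00794, the smallest that 252 splits allow, and 0.0556 after Benjamini-Hochberg adjustment over the 7 isozyme ratios compared, which misses the threshold of 0.05. With 5 libraries a group and 7 ratios, a ratio that separates can go below this adjusted p only if other ratios also have small p-values. The next smallest p by the same permutation test was 0.0238, for Pfkp to Pfkm. The miss thus depended on the design and on the other ratios. Per kilobase, the ratio was 0.0990 in restraint libraries and 0.119 in controls.

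The other 6 ratios did not pass the test either. Pfkp to Pfkm was 0.496, 0.459, 0.550, 0.558 and 0.513 in restraint libraries 1 to 5, against 0.447, 0.462, 0.430, 0.438 and 0.480 in control libraries 1 to 5. The restraint values lay mostly above the controls but overlapped them through restraint library 2, with a difference of 0.19 (exact permutation p = 0.0238, adjusted 0.0833). The difference in mean log2 ratio was -0.13 for Suclg2 to Sucla2 and -0.10 for Pfkl to Pfkm (both adjusted p = 0.181, exact permutation test), -0.12 for Eno2 to Eno1 (adjusted p = 0.211), -0.12 for Mdh1 to Mdh2 (adjusted p = 0.222) and -0.20 for Slc2a3 to Slc2a1 (adjusted p = 0.341). In all 6 the groups overlapped.

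**Figure D4:**
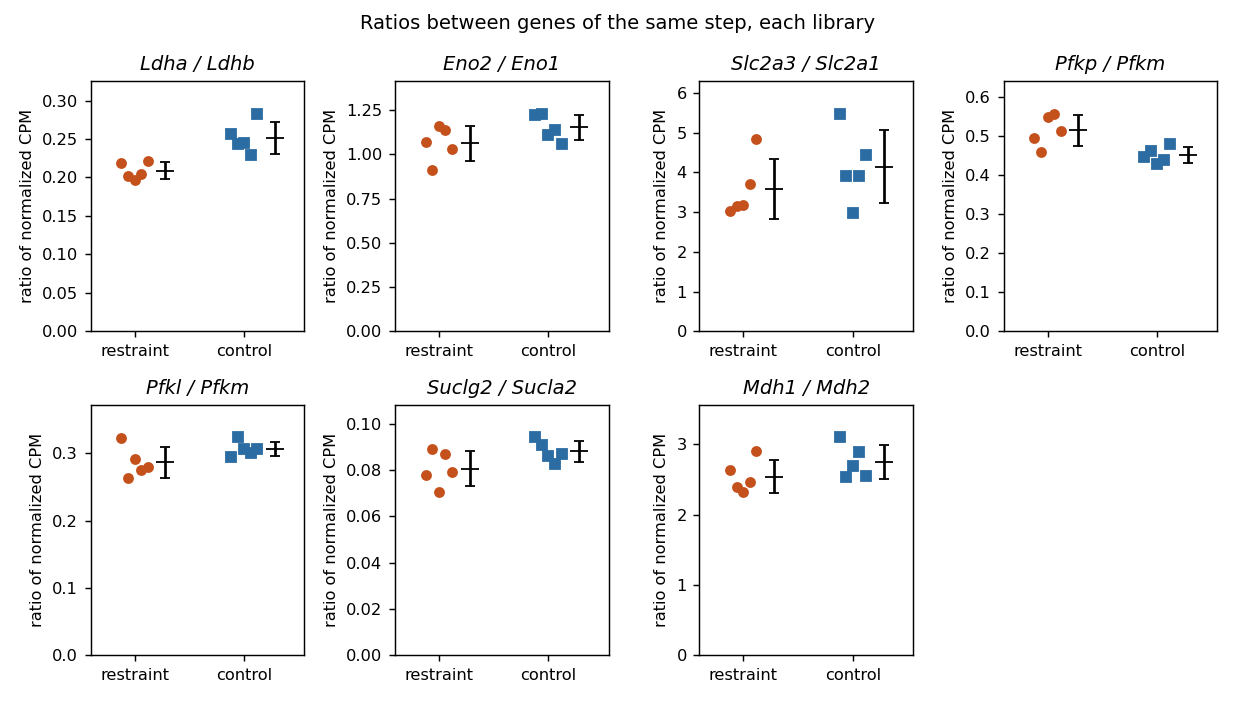
The 7 isozyme ratios (CPM over CPM) in each restraint and control library, with mean ± SD beside the points. Ldha to Ldhb is the one ratio whose groups do not overlap, at 0.197 to 0.222 in restraint libraries and 0.229 to 0.283 in controls.

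In the pyruvate dehydrogenase complex, 0 of 4 genes reached an unadjusted p under 0.05. Log2 fold changes were 0.04 ± 0.09 for Pdha1 and -0.00 ± 0.07 for Pdhb, the subunits that decarboxylate pyruvate, -0.01 ± 0.07 for Dlat, which forms acetyl-CoA, and -0.02 ± 0.07 for Dld, the dehydrogenase shared with the 2-oxoglutarate complex. The 95% intervals of the 4 reached from -0.18 to 0.24, and their adjusted p-values were 0.913 to 0.995. Dlat had 181 ± 7.32 CPM in restraint libraries and 182 ± 8.27 CPM in controls.

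In the citric acid cycle, 10 of 13 genes had a log2 fold change below 0, with a median of -0.08, and 0 of 13 passed the test. At an unadjusted p under 0.05 the 13 genes held 3 lower genes, the cytosolic Mdh1 among them, and the only higher one. The subunits of NAD-linked isocitrate dehydrogenase, a rate-controlling step, stood at different values. Idh3b, a structural subunit, had 273, 218, 261, 261 and 254.5 CPM in restraint libraries 1 to 5, against 302, 342, 315, 287 and 267 CPM in control libraries 1 to 5. All 5 restraint values lay below the control median and 4 of 5 below the lowest control, and the log2 fold change was -0.26 ± 0.08 (adjusted p = 0.222). The catalytic subunit Idh3a had -0.01 ± 0.07 (adjusted p = 0.973) and Idh3g had -0.05 ± 0.09 (adjusted p = 0.907); the difference between subunits was not tested. Idh2, the NADP-linked mitochondrial form, had 46.0 ± 4.08 CPM in restraint libraries and 48.7 ± 6.56 CPM in controls.

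Ogdh, the first component of the 2-oxoglutarate dehydrogenase complex, was the one gene of the list above control at an unadjusted p under 0.05. It had 438, 442, 513, 484.5 and 427 CPM in restraint libraries 1 to 5, against 364, 453, 371, 394 and 425 CPM in control libraries 1 to 5. All 5 restraint values lay above the control median, and control library 2 lay above 3 of the 5 restraint libraries. The log2 fold change was 0.20 ± 0.08 (adjusted p = 0.338), and without restraint library 3 or control library 1, 3 or 4 the unadjusted p of Ogdh was no longer under 0.05, so that 0 of the 34 were higher. Dlst, the second component of that complex, had 229.9 ± 19.2 CPM in restraint libraries and 213 ± 17.6 CPM in controls, a log2 fold change of 0.11 ± 0.08 (adjusted p = 0.656).

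Succinyl-CoA ligase pairs the shared subunit Suclg1 with Sucla2, which makes ATP, or Suclg2, which makes GTP. Suclg2 had 22.1, 23.8, 18.1, 22.3 and 21.1 CPM in restraint libraries 1 to 5, against 29.7, 24.1, 26.8, 26.1 and 23.2 CPM in control libraries 1 to 5. Sucla2 had 285, 267, 257, 257 and 268 CPM in restraint libraries 1 to 5, against 315.5, 265, 311, 317 and 267 CPM in control libraries 1 to 5. For both genes all 5 restraint values lay below the control median, with overlapping groups and log2 fold changes of -0.27 ± 0.10 (adjusted p = 0.275) for Suclg2 and -0.15 ± 0.08 (adjusted p = 0.480) for Sucla2. Suclg1 had 165 ± 16.3 CPM in restraint libraries and 179.8 ± 12.2 CPM in controls, and Fh1, the fumarase, had 128 ± 4.80 CPM in restraint libraries and 140.0 ± 4.39 CPM in controls, a log2 fold change of -0.13 ± 0.07 (adjusted p = 0.460).

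Malate dehydrogenase closes the cycle in the mitochondrion, as Mdh2. Mdh1 works in the cytosol but was listed with the cycle and is counted among its 13 genes here. The cytosolic Mdh1 had 1433, 1356, 1341, 1287 and 1707 CPM in restraint libraries 1 to 5, against 1681, 1370, 1651, 1781 and 1627 CPM in control libraries 1 to 5. The mitochondrial Mdh2 had 544, 568, 578, 522 and 589 CPM in restraint libraries 1 to 5, against 542, 541, 614, 616 and 638 CPM in control libraries 1 to 5. Restraint library 5 held the second highest Mdh1 value of all 10 libraries, and restraint libraries 2, 3 and 4 lay below every control. The log2 fold changes were -0.19 ± 0.09 (adjusted p = 0.424) for Mdh1 and -0.08 ± 0.07 (adjusted p = 0.751) for Mdh2, whose restraint values all lay below the control median.

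Across the list, each library can be summarised by the mean log2 CPM of the 34 genes, given here without a test because the members were chosen. It was 8.34 to 8.38 in restraint libraries and 8.37 to 8.44 in controls. Restraint library 3 overlapped control library 1, and the other restraint libraries lay lower than every control. For the 13 citric acid cycle genes, the cytosolic Mdh1 among them, the mean was 7.72 to 7.74 in restraint libraries and 7.76 to 7.86 in controls. These ranges did not overlap, and no other of the 6 roles separated the groups. For the 6 payoff genes it was 9.94 to 10.09 in restraint libraries and 10.07 to 10.21 in controls, and for the 4 pyruvate dehydrogenase genes 7.37 to 7.46 in restraint libraries and 7.35 to 7.48 in controls. The 7 preparatory genes stood at 9.016 to 9.122 in restraint libraries and 8.996 to 9.184 in controls, the 2 lactate dehydrogenase genes at 8.98 to 9.26 in restraint libraries and 9.02 to 9.35 in controls, and the 2 transporters at 5.86 to 6.11 in restraint libraries and 5.95 to 6.12 in controls. The number of the 34 genes below the control mean was 26, 22, 20, 24 and 24 in restraint libraries 1 to 5, and 22, 19, 13, 12 and 11 in control libraries 1 to 5, so control library 1 resembled the restraint libraries in this count. Restraint library 1, which stood apart over all genes, had the most genes below the control mean. The part of the astrocyte and dopamine neuron marker levels given above in these values was not tested.

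**Figure D5:**
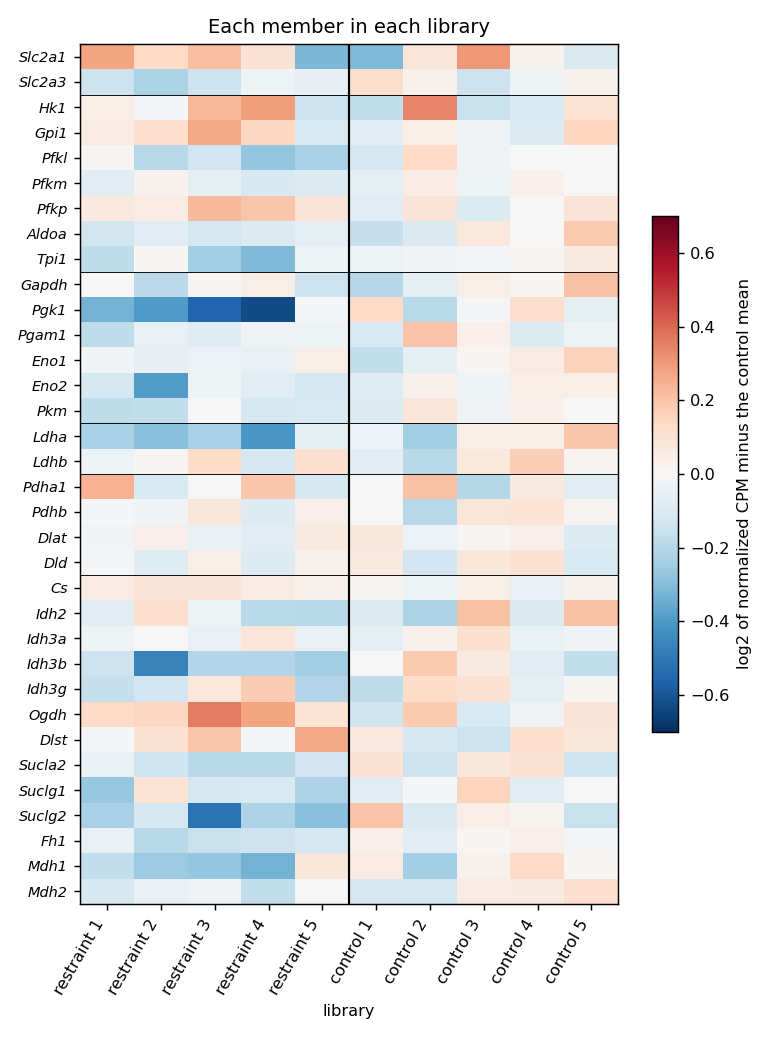
Log2 CPM of the 34 genes in each library as a difference from the control mean of that gene, with restraint libraries to the left of controls. Restraint libraries hold 20 to 26 genes below the control mean and control libraries 11 to 22.

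Beyond the 34, 81 further genes of glucose metabolism were looked up, and 75 were tested. None passed the test. At an unadjusted p under 0.05, 3 were higher and 9 lower, where 5.64% of all genes were higher and 6.04% lower. The median log2 fold change was -0.04, against -0.00 for all genes. Ldhd, the mitochondrial D-lactate dehydrogenase, had 14.9, 13.8, 13.2, 14.1 and 14.2 CPM in restraint libraries 1 to 5, against 16.7, 16.6, 17.2, 18.3 and 18.2 CPM in control libraries 1 to 5. Sdhb, the iron-sulphur subunit of succinate dehydrogenase, had 157.5, 176, 154, 145 and 185 CPM in restraint libraries 1 to 5, against 186, 191, 233, 199.5 and 186 CPM in control libraries 1 to 5. For both, all restraint values lay below all control values, as for 1.36% of all genes, with log2 fold changes of -0.31 ± 0.09 (adjusted p = 0.185) and -0.28 ± 0.09 (adjusted p = 0.205). The membrane anchor Sdhd of the same complex had a log2 fold change of -0.25 (adjusted p = 0.419).

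The regulators and carriers gave a mixed picture. Among 9 tested regulators of glycolysis, Txnip, which restrains glucose uptake, had a log2 fold change of 0.60 (7.47 ± 2.53 CPM after restraint and 4.92 ± 1.66 in controls; adjusted p = 0.372), Tigar, a fructose bisphosphatase, 0.21 (adjusted p = 0.398) and Pfkfb2, which makes the phosphofructokinase activator fructose 2,6-bisphosphate, -0.23 (adjusted p = 0.411). Hif1a had 135 ± 5.36 CPM in restraint libraries and 135 ± 11.7 CPM in controls. Of 13 tested carriers, Mpc2, a subunit of the mitochondrial pyruvate carrier, had -0.40 (adjusted p = 0.402) and the glucose transporter family member Slc2a6 -0.24 (adjusted p = 0.424). None of 10 partners and regulators of pyruvate dehydrogenase reached an unadjusted p under 0.05. Among 15 genes of anaplerosis and shuttles, the malic enzyme Me1 had 0.23 (adjusted p = 0.311), pyruvate carboxylase Pcx -0.23 (adjusted p = 0.390) and the mitochondrial phosphoenolpyruvate carboxykinase Pck2 -0.22 (adjusted p = 0.404). Aldoc, the astrocyte-enriched aldolase, had 1322 ± 102 CPM in restraint libraries and 1432 ± 94.3 CPM in controls, on the same side as Aldoa. Genes tied to other tissues were too low to test, with 2 counts over all libraries for the testis gene Pgk2, 0 for Ldhc, 28 for the liver pyruvate kinase Pklr and 38 for the liver transporter Slc2a2.

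Several of the 34 share sequence with other genes, which bears on how reads were assigned. In GENCODE M21, 14 of the 34 had pseudogene transcripts of at least 90% identity over at least 300 bases, 215 in all: 169 for Gapdh, 13 for Ldha, 8 for Pkm, 4 for Pgk1 and 3 for Pgam1. The counts assigned to these copies came to 0.84% of those of Gapdh, 0.04% for Pgk1 and 0.97% for Pgam1. Multi-mapping reads were not counted, so these shares cannot show how many reads a gene lost to its copies. Exon bases shared with another annotated gene made up 16.1% of Pdha1 (with Map3k15), 15.3% of Pkm (with Gm49759), 10.7% of Pfkm (with Senp1 and Gm26513) and 5.6% of Pfkp (with Pitrm1), and reads over those bases were not assigned. The ratio of Pfkp to Pfkm is uncertain to that extent. In GRCm39 coordinates as deposited, Pgk1 lies at chrX:105230706-105247305, Ldha at chr7:46490899-46505051 and Ogdh at chr11:6241633-6306642, all on the plus strand and with no shared exon bases. On the minus strand lie Ldhb at chr6:142435975-142453683, Pfkl at chr10:77822781-77845917, Idh3b at chr2:130121229-130126467, Suclg2 at chr6:95449990-95695781 and Mdh1 at chr11:21506692-21522367.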

How the data were processed

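The 10 libraries of ribosome-bound RNA were grouped as 5 restraint and 5 control by their titles. The submitters' processing notes name FastQC, Trimmomatic, STAR and featureCounts, the build mm10 and no versions. The authors deposited 1 table of whole-number counts per gene, made with featureCounts 2.0.3 on exons of GENCODE M30, per the file headers. M30 is an annotation of GRCm39, and 93.9% of 52073 gene starts lay more than 10000 bases from those in M21 (GRCm38), so gene coordinates are given in GRCm39. The recorded options name no strand and no counting of multi-mapping reads, so, per the file headers, sense and antisense reads cannot be told apart and multi-mapping reads were not counted. All columns were mapped to samples. Symbols came from GENCODE M21 by identifier, for 52073 of 56691 genes. Of the 2 rows named Aldoa, the one with more counts was used, and the other held 282 counts.

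Genes were filtered with filterByExpr (count minimum 10, total minimum 15), normalized by TMM and tested with edgeR 4.0.16 (glmQLFit and glmQLFTest) in R 4.3.3, with group as the only term and Benjamini-Hochberg adjustment over all 18440 genes. CPM values are normalized by TMM, RPKM divides them by the deposited exon length, and a prior count of 2 was added for log2 CPM. Standard errors came from the fold change and the F statistic. Precision is given by these errors over 5 libraries a group. Isozyme ratios were tested by exact two-sided permutation. Pseudogene copies were searched with BLAST 2.17.0, and promoter letters were taken from RefSeq. The scripts for the gene test were tested on simulated data.

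The 34 genes and all lists were chosen with earlier results of these data known. All 34 are accounted for; values in every library are given for those with an unadjusted p under 0.05, for members of the isozyme ratios and for the 4 highest per kilobase in controls. Of the other lists, up to 4 genes with an unadjusted p under 0.05 are named by smallest p, and 1 gene that this rule takes is not reported here. Hif1a, Aldoc and the genes too low to test were added after their values were seen. Alternatives were RLE, upper quartile and library-size normalization, 2 other filters, DESeq2 1.42.0, limma-voom (limma 3.58.1), robust estimation, halved counts, a replicate block, removal of length or GC trends (lowess, span 0.3) and leaving out each library.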

Additional observations from a re-analysis of the deposited data

Results flagged for a closer look

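Eno2 in restraint library 2 stood far from the other restraint libraries, at 1057 CPM against 1272 to 1353 in the other 4, a gap of 0.728 of the range of the group where 0.71 is the limit for 5 samples. Of 82 groups of 5 libraries looked at, it was the only one past that limit, and chance flags about 1 in 20.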

How the results depend on the processing

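The median log2 fold change of the 34 genes stayed below 0 in all 23 alternatives, at -0.09 to -0.05. Of 782 recomputed gene values, 761 kept direction and side of the threshold. Pgk1 alone crossed it, in 3: with DESeq2, with no filter, and without restraint library 5, each giving 1 lower gene of the 34 at an adjusted p under 0.05. The other 20 alternatives gave 0 lower, and all 23 gave 0 higher. Counts of the 34 at an unadjusted p under 0.05 were 4 to 7 lower and 0 to 1 higher when 1 library was left out; Ogdh was the gene lost, without restraint library 3 or control library 1, 3 or 4. The replicate numbers did not pair the libraries (correlations of -0.16 to 0.03, and no number was its own best match), and with the replicate block 0 of the 34 were higher at an unadjusted p under 0.05 and 4 lower, and over all genes 0 were higher and 0 lower at an adjusted p under 0.05. The count of lower genes was 4 to 8 over the settings that keep all libraries: also 4 with RLE or no filter, 7 with library size only, with the CPM filter or with the length trend removed, and 8 with the GC trend removed.

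Over all genes, 1 was higher and 3 lower in the reported test. These counts were 5 and 12 with library size only, 103 and 199 with no filter, 139 and 192 with DESeq2, 25 and 53 with the length trend removed, and 0 and 0 with robust estimation, with the GC trend removed and with the length trend removed plus the replicate block. Leaving out 1 library gave 0 to 9 higher and 0 to 83 lower. The cause was not tested.

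The sign turned in 18 values over 7 genes, none with a size above 0.0446 on the log2 scale in the reported test. Pdhb was at 0.0002 with limma-voom and 0.00 with the replicate block. Leaving out 1 library gave -0.0018 to 0.105 for Pdha1, -0.0434 to 0.0252 for Pdhb, -0.0392 to 0.0156 for Dlat, -0.0588 to 0.0025 for Dld, -0.0203 to 0.061 for Ldhb, -0.0315 to 0.0251 for Idh3a and -0.0626 to 0.0066 for Eno1. A normalization that scales all genes of a library alike cannot move a ratio within it, but removing a length or GC trend can. The ratios were not recomputed with those trends removed. With the length trend removed, the log2 fold change was 0.07 for Ldhb and -0.24 for Ldha, against 0.02 and -0.25 in the reported test. When 1 library was left out, the difference was -0.30 to -0.22 for Ldha to Ldhb, and none of the 7 ratios changed sign. The adjusted p of a ratio that separates could then go below 0.0556 only if other ratios also had small p-values. No conclusion on stability is drawn from the p-values with 1 library left out.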
